A study of Homo sapiens with 6 samples.

Results

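The members described here are 36 genes that have been reported as direct targets of the miR-17 microRNA family and that lie outside its cell cycle, MAPK, PI3K, TGF-beta and apoptosis targets. Their transcripts were measured in Hep3B, an established line of human hepatocellular carcinoma cells, on 6 Affymetrix HG-U133 Plus 2 arrays. A probe set, the group of probes that reports 1 transcript, was taken as a member's when its gene symbol was exactly that of the member. Of the 36 genes, 33 had such probe sets, 102 in all, among 19775 genes with a probe set of 1 symbol. NCOA3 and PKD2 were paired with no probe set by the annotation used here, and the 13 probe sets of RUNX1 carry several symbols and were not named. Probe sets near the lowest value were left out, and 79 probe sets of 30 members were tested. They stood among 13949 genes and among 32768 probe sets, which include those with no symbol or several.

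The miR-17 TuD group (3 arrays) carried a lentiviral tough decoy against the miR-17 family, an RNA that holds microRNAs at exposed sites. The NC TuD group (3 arrays) carried a control decoy of the same type. All cells met virus for 48 hours (multiplicity of infection 5), were selected with puromycin for 2 weeks and were pooled as resistant colonies, so each group is 1 pooled stable line. Nothing in the labels says that samples of a group came from separate cultures, and p-values therefore measure the scatter among these samples alone, which may be technical. A code in the sample descriptions holds 72HR throughout, with PLUSDOX on each miR-17 TuD array and NODOX on each NC TuD array. The sources used here do not explain it. It goes with the group on 6 of 6 arrays, so what it stands for and the decoy cannot be told apart.

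MicroRNAs guide Argonaute proteins to partly complementary sites, mostly in 3′ UTRs, where they lower mRNA stability and translation. Pairing is led by the seed, bases 2 to 8 of the microRNA, and members of a family share it. The miR-17 family is transcribed from 3 paralogous clusters and is often abundant in liver cancer and other tumours. A decoy occupies the microRNA, and mRNAs it represses can then rise, though a change in translation alone would not be seen on an array.

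The 6 mature sequences of the family are shown because the members are genes reported as targets of microRNAs with this seed. They were taken from RefSeq (GRCh38.p14), with the seed in capitals.
hsa-miR-17-5p: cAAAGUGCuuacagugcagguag
hsa-miR-20a-5p: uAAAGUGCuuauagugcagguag
hsa-miR-20b-5p: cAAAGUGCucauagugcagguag
hsa-miR-93-5p: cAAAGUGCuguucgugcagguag
hsa-miR-106a-5p: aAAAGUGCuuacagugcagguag
hsa-miR-106b-5p: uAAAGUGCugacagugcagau
All 6 have the seed AAAGUGC, which pairs with GCACUUU in a target. Mature miR-17-5p lies at chr13:91350618-91350640 and miR-20a-5p at chr13:91351072-91351094, both on the plus strand. On the minus strand lie miR-20b-5p at chrX:134169850-134169872, miR-106a-5p at chrX:134170244-134170266, miR-93-5p at chr7:100093815-100093837 and miR-106b-5p at chr7:100094043-100094063. Counted over the whole sequence, with the shared seed included, miR-106a-5p matches miR-17-5p at 22 of 23 positions. The matches are 21 of 23 for miR-20a-5p and miR-20b-5p, 19 of 23 for miR-93-5p and 18 of 21 for miR-106b-5p. Of 2370 mature human microRNAs in the table, 8 carry this seed, and the 2 outside the family are hsa-miR-526b-3p and hsa-miR-519d-3p on chromosome 19.

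The same clusters also encode microRNAs with other seeds, and 4 of them are shown for contrast.
hsa-miR-18a-5p: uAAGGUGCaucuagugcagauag
hsa-miR-19a-3p: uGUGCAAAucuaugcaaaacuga
hsa-miR-92a-3p: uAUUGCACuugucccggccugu
hsa-miR-25-3p: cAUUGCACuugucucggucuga
The seed of miR-18a-5p is AAGGUGC, that of miR-19a-3p is GUGCAAA, and miR-92a-3p and miR-25-3p share AUUGCAC. No 3′ UTR sequences were used here, so whether each member's transcript holds a matching site was not tested.

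In miR-17 TuD cells 10 members rose: LIMK1, CROT, ZFYVE26, PTPN4, MICA, TNFRSF21, LIMA1, EZH1, FRMD6 and JAK1. CRIM1 fell, and 19 members did not pass the threshold. The rises were small, between 1.17-fold for JAK1 and 1.68-fold for LIMK1, and 3 members (LIMK1, CROT and ZFYVE26) passed 1.5-fold. Each gene is represented by the brightest of its probe sets on average over the 6 arrays, and the threshold is an adjusted p of 0.05 in limma with Benjamini-Hochberg adjustment over all 13949 genes. By this rule 33.3% of the tested members were higher, against 6.78% of all genes, and 3.33% were lower, against 4.60% of all genes. Members were expressed above the typical gene, with a median level of 10.54 on the log2 scale against 9.27 for all genes, and 27 of them had a mean level above 7. Among genes above that level 9.23% were higher and 6.20% lower, and the 27 members held 8 of the higher calls.

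Most members lay somewhat above 0, called or not. The median difference, miR-17 TuD minus NC TuD, was 0.17 on the log2 scale for the 30 members and 0.00 for all genes, and 24 members lay above 0 and 6 below, while 50.5% of all genes lay above 0. In 20 members every miR-17 TuD array exceeded every NC TuD array, and 18.3% of all genes did so. In 3 members (CRIM1, TP53INP1 and TXNIP) every miR-17 TuD array lay below every NC TuD array, and 14.7% of all genes did so. The groups overlapped in the other 7 members, none of which passed the threshold. Across the members the miR-17 TuD arrays were the more scattered, with a median SD of 0.089 against 0.050 in NC TuD arrays. The SD was larger in miR-17 TuD in 23 of 30 members. The same measure over all genes was not taken.

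**Figure D1:**
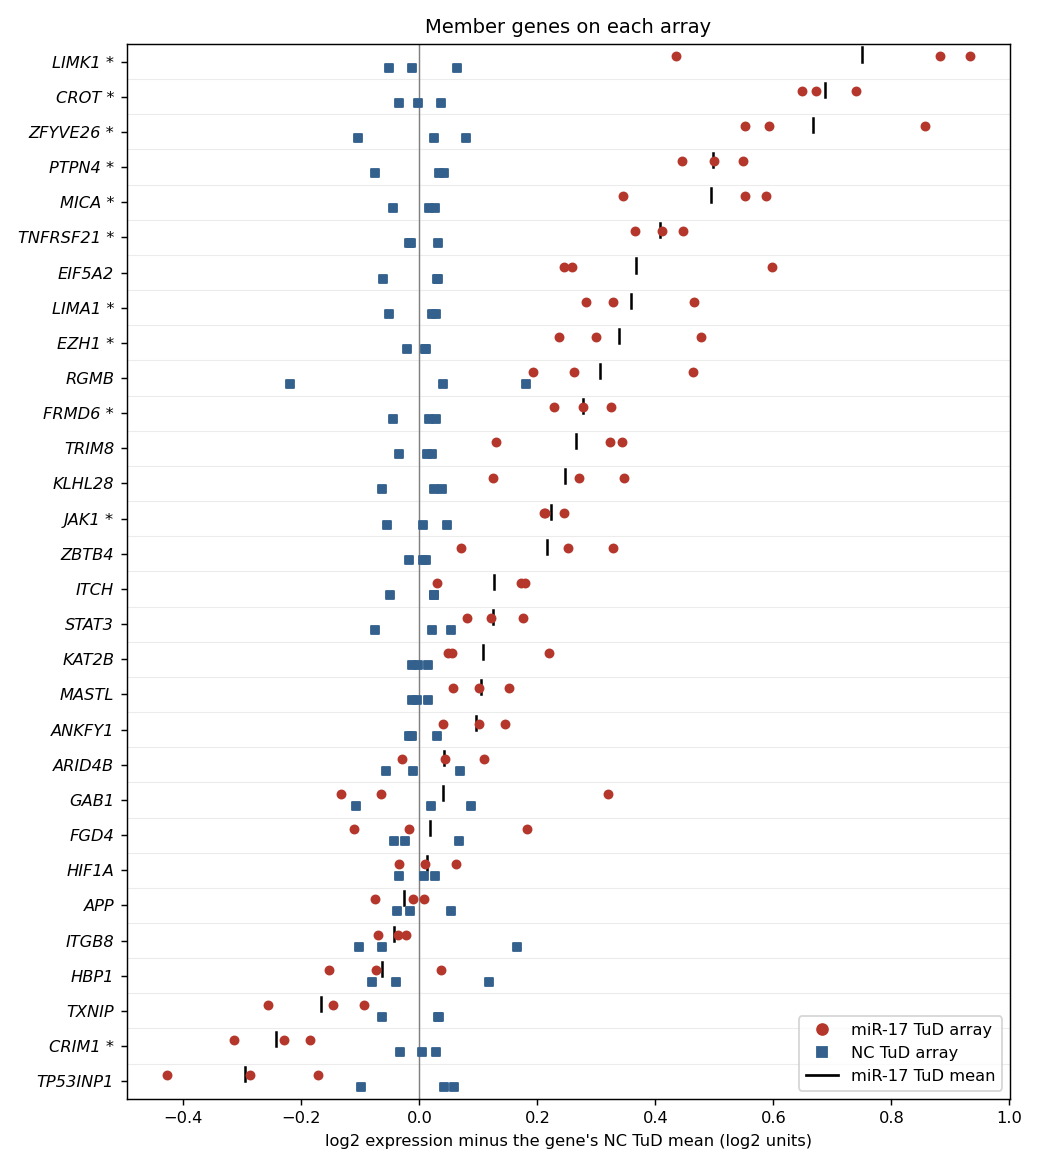
Log2 expression of each tested member on every array, relative to that gene's NC TuD mean (x axis, log2 units), with genes down the page in order of their difference. Red circles are miR-17 TuD arrays, blue squares NC TuD arrays, black bars the miR-17 TuD mean, and asterisks mark the 11 genes past the threshold. In the 10 genes that rose the circles lie clear of the squares to the right, and in CRIM1 they lie clear to the left.

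**Figure D2:**
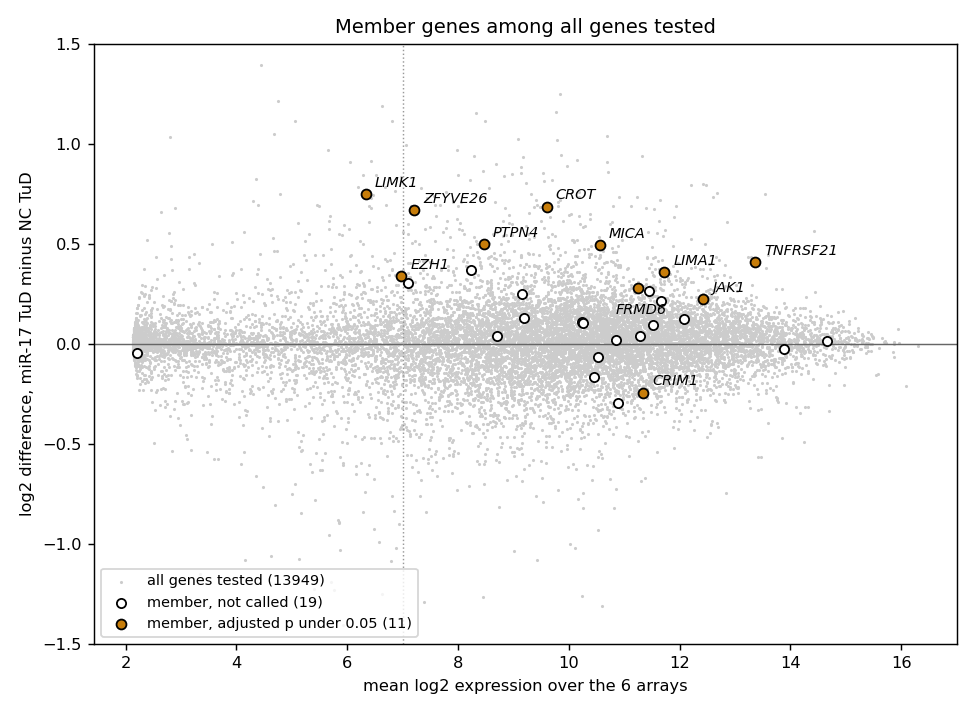
Difference of each gene, miR-17 TuD minus NC TuD (y axis, log2), against its mean log2 expression over the 6 arrays (x axis), for 13949 genes in grey and the 30 tested members as circles, filled where past the threshold. The dotted line marks a level of 7, and 4 genes outside a difference of 1.5 in size are not drawn. Most members lie above 0, within the range of the other genes.

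Among the genes of cytokine, hypoxia and immune signalling, JAK1, MICA and TNFRSF21 rose and the other 4 tested members did not pass. TNFRSF21 (probe set 218856_at) encodes death receptor 6, a member of the tumour necrosis factor receptor superfamily. Its log2 expression was 13.52, 13.57 and 13.60 on the miR-17 TuD arrays, against 13.14, 13.19 and 13.14 on the NC TuD arrays. The groups were widely separated for their spread, and the rise was 1.33-fold (log2 difference 0.41, SE 0.027, limma adjusted p = 0.00654). MICA (205904_at) encodes a stress-induced ligand of the natural killer cell receptor NKG2D. It read 10.65, 10.86 and 10.89 in miR-17 TuD, against 10.26, 10.33 and 10.32 in NC TuD. The first miR-17 TuD array was the lowest of its group but lay above all NC TuD arrays, and MICA rose 1.41-fold (0.49, SE 0.073, limma adjusted p = 0.0238).

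JAK1 (201648_at), a tyrosine kinase that signals for many cytokine receptors, read 12.53, 12.53 and 12.56 in miR-17 TuD, against 12.32, 12.36 and 12.26 in NC TuD. Its rise was the smallest among the 10, 1.17-fold (0.22, SE 0.030, limma adjusted p = 0.0190), with no overlap of the groups. STAT3, the transcription factor activated downstream of JAK1, read 12.13, 12.09 and 12.18 in miR-17 TuD, against 11.93, 12.06 and 12.03 in NC TuD. The groups did not overlap, but the difference of 0.13 (SE 0.044) did not pass (limma adjusted p = 0.154). The adaptor protein GAB1 overlapped at its brightest probe set (0.04, SE 0.140, limma adjusted p = 0.904), averaging 8.72 ± 0.24 in miR-17 TuD and 8.68 ± 0.099 in NC TuD (SD, n = 3 each), with 1 high miR-17 TuD array.

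HIF1A, the oxygen-regulated transcription factor subunit, was highly expressed and nearly equal in the groups. It read 14.66, 14.71 and 14.62 in miR-17 TuD, against 14.68, 14.66 and 14.62 in NC TuD (difference 0.01, SE 0.031). TRIM8, a ubiquitin ligase of cytokine signalling, read 11.44, 11.63 and 11.65 in miR-17 TuD, against 11.27, 11.32 and 11.33 in NC TuD. It was higher on every miR-17 TuD array without passing (0.27, SE 0.065, limma adjusted p = 0.0714). PDCD1LG2, which encodes the checkpoint ligand PD-L2, was at the lowest value of 2.12 on all 6 arrays in both of its probe sets and was not tested.

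Of 6 tested transcription and chromatin genes, EZH1 rose. EZH1 (32259_at) encodes a histone H3 lysine 27 methyltransferase that can take the place of EZH2 in a Polycomb repressive complex. It read 7.04, 7.11 and 7.29 in miR-17 TuD, against 6.82, 6.82 and 6.79 in NC TuD. The lowest miR-17 TuD array exceeded the highest NC TuD array, and the rise was 1.26-fold (0.34, SE 0.067, limma adjusted p = 0.0453). ZBTB4, a zinc finger repressor that binds methylated DNA, read 11.63, 11.89 and 11.81 in miR-17 TuD, against 11.55, 11.57 and 11.57 in NC TuD, and did not pass (0.22, SE 0.071, limma adjusted p = 0.134).

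TP53INP1, a p53-induced nuclear and autophagy protein, lay in the opposite direction. It read 10.61, 10.87 and 10.75 in miR-17 TuD, against 11.10, 11.08 and 10.94 in NC TuD. The groups did not overlap, but the difference of -0.30 (SE 0.083) did not pass (limma adjusted p = 0.0956). The acetyltransferase KAT2B (0.11, SE 0.052), the chromatin protein ARID4B (0.04, SE 0.051) and the cell cycle inhibitory repressor HBP1 (-0.06, SE 0.075) did not pass either, and the groups overlapped in ARID4B and HBP1.

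In metabolism, membrane transport and translation, CROT rose. CROT (204573_at), the peroxisomal carnitine octanoyltransferase that helps medium-chain acyl groups leave peroxisomes, had the smallest adjusted p of all members. It read 9.99, 9.93 and 9.90 in miR-17 TuD, against 9.22, 9.25 and 9.29 in NC TuD. Replicates lay within about 0.1 of each other and the groups were far apart, a rise of 1.61-fold (0.69, SE 0.032, limma adjusted p = 0.00338). EIF5A2, a translation elongation factor, read 8.65, 8.30 and 8.31 in miR-17 TuD, against 8.08, 7.99 and 8.08 in NC TuD. The difference of 0.37 was as large as that of some called members, but the scatter of the miR-17 TuD arrays was wider (SE 0.110, limma adjusted p = 0.110).

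TXNIP, an inhibitor of thioredoxin and of glucose uptake, read 10.38, 10.27 and 10.44 in miR-17 TuD, against 10.47, 10.56 and 10.56 in NC TuD. All miR-17 TuD values were the lower, and the difference of -0.17 (SE 0.053) did not pass (limma adjusted p = 0.129). The transporter SLC16A9 was at 2.12 on all 6 arrays and was not tested.

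Among kinases, phosphatases and ubiquitin ligases, PTPN4 rose and MASTL, ITCH and KLHL28 did not pass. PTPN4 (205171_at), a tyrosine phosphatase with FERM and PDZ domains, read 8.66, 8.76 and 8.71 in miR-17 TuD, against 8.25, 8.26 and 8.14 in NC TuD. The groups were separated by several times their spread, a rise of 1.41-fold (0.50, SE 0.044, limma adjusted p = 0.00940). MASTL, the Greatwall kinase that restrains PP2A in mitosis, read 10.26, 10.36 and 10.31 in miR-17 TuD, against 10.20, 10.19 and 10.22 in NC TuD. Its difference was small and did not pass (0.10, SE 0.027, limma adjusted p = 0.0827). KLHL28, a BTB and kelch protein, read 9.38, 9.30 and 9.15 in miR-17 TuD, against 9.05, 9.07 and 8.96 in NC TuD (0.25, SE 0.067, limma adjusted p = 0.0902). The groups did not overlap in KLHL28 or, at its brightest probe set, in the HECT ubiquitin ligase ITCH (0.13, SE 0.051). Other probe sets of ITCH lay below 0, as given further on. DAPK3, a death-associated kinase, was at 2.12 on all 6 arrays.

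The genes of the cytoskeleton, adhesion and cell shape held 3 of the rises: LIMK1, LIMA1 and FRMD6. LIMK1 (204357_s_at), the kinase that phosphorylates and inactivates cofilin, read 6.85, 6.90 and 6.40 in miR-17 TuD, against 6.03, 5.95 and 5.91 in NC TuD. It had the largest difference of all tested members, 1.68-fold (0.75, SE 0.149, limma adjusted p = 0.0451), with the third miR-17 TuD array well below the other two. LIMA1 (217892_s_at), the actin-bundling protein EPLIN, read 12.01, 11.87 and 11.83 in miR-17 TuD, against 11.57, 11.56 and 11.49 in NC TuD. The groups were clear of each other, and LIMA1 rose 1.28-fold (0.36, SE 0.056, limma adjusted p = 0.0269).

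FRMD6 (225464_at), a FERM domain protein also called willin and linked to Hippo signalling, read 11.38, 11.43 and 11.33 in miR-17 TuD, against 11.06, 11.13 and 11.12 in NC TuD. It rose 1.21-fold (0.28, SE 0.034, limma adjusted p = 0.0157), with similar spread in both groups. FGD4, the CDC42 exchange factor frabin, overlapped between the groups (0.02, SE 0.086). The integrin subunit ITGB8 was near the lowest value, at a mean of 2.18 in miR-17 TuD and 2.22 in NC TuD.

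The membrane and ligand-binding members held the only member that fell. CRIM1 (202551_s_at), a transmembrane protein that binds bone morphogenetic proteins, read 11.23, 11.27 and 11.14 in miR-17 TuD, against 11.42, 11.46 and 11.49 in NC TuD. All miR-17 TuD arrays lay below all NC TuD arrays, and CRIM1 was 1.18-fold lower (-0.24, SE 0.039, limma adjusted p = 0.0292). RGMB, a bone morphogenetic protein co-receptor, read 7.14, 7.21 and 7.42 in miR-17 TuD, against 6.73, 6.99 and 7.13 in NC TuD. The groups only just separated, and the difference of 0.31 (SE 0.132) did not pass (limma adjusted p = 0.221). APP, the amyloid precursor protein, read 13.82, 13.91 and 13.89 in miR-17 TuD, against 13.88, 13.86 and 13.95 in NC TuD. The groups overlapped at this, its brightest probe set (-0.03, SE 0.035), and the other probe sets of APP are given further on.

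Of the endosomal members, ZFYVE26 rose. ZFYVE26 (213073_at), or spastizin, carries a FYVE domain that binds phosphatidylinositol 3-phosphate and works in autophagic lysosome reformation. It read 7.47, 7.43 and 7.73 in miR-17 TuD, against 6.90, 6.77 and 6.95 in NC TuD. The third miR-17 TuD array was the highest, and the rise was 1.59-fold (0.67, SE 0.101, limma adjusted p = 0.0254). ANKFY1, the FYVE protein rabankyrin-5, read 11.57, 11.51 and 11.62 in miR-17 TuD, against 11.50, 11.46 and 11.45 in NC TuD, and did not pass (0.10, SE 0.032, limma adjusted p = 0.141).

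All probe sets of a gene were then set side by side. Each of the 79 was tested in a fit over 32768 probe sets, which included those with no symbol or several. In that fit 15 member probe sets were higher and 2 lower, against 3.35% and 2.48% of all probe sets. Of the 79, 59 lay above 0 and 19 below. Of the members, 5 had 1 tested probe set; of the 25 with several, 20 had all probe sets on 1 side of 0 or at it, and 5 (JAK1, TP53INP1, PTPN4, ITCH and RGMB) had both signs. No member had probe sets called in both directions. Probe sets whose names end in s_at or x_at can bind transcripts of related genes or of several genes, and the calls of LIMK1, LIMA1 and CRIM1 rested on s_at probe sets.

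Separate probe sets gave close values in several of the genes that rose. TNFRSF21 was 0.41 and 0.42 higher at its pair of probe sets, and ZFYVE26 was 0.67 and 0.64 higher, all called (limma adjusted p = 0.0110, 0.0176, 0.0389 and 0.0400). JAK1 was called at 3 probe sets, with differences of 0.22, 0.29 and 0.26. The remaining one, 239695_at, lay near the lowest value, where 5 of 6 arrays read 2.23, and differed by -0.18. LIMA1 was called at 2 of 3 probe sets (0.36 and 0.43, with 0.18 at the other), and CRIM1 fell at 2 of 3 (-0.24 and -0.24, with -0.12 at the other). None of these calls held in all 6 fits with 1 array left out. Those of TNFRSF21 held in 4 and 2 fits, ZFYVE26 in 1 and 0, and LIMA1 in 1 and 3. Those of JAK1 held in 0, 1 and 0 fits, and both of CRIM1 in 0.

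In other members the probe sets differed. CROT was 0.69 at 204573_at and 0.21 at 231102_at, a dimmer probe set whose groups overlapped. PTPN4 was 0.50 at 205171_at, while its other tested probe sets, at levels near 3, gave -0.02 and 0.10. Of the 6 tested probe sets of ITCH, 4 lay above 0 and 2 below, and none was called. At 239101_at all miR-17 TuD arrays lay below all NC TuD arrays (-0.16, SE 0.038, limma adjusted p = 0.0878). At 236235_at the groups overlapped (-0.18, SE 0.076). EZH1 gave 0.34 and 0.33 at 2 probe sets and 0.10 at another, and neither EZH1 nor LIMK1 passed in the fit over probe sets (limma adjusted p = 0.0650 for each). LIMK1 rested on 1 informative probe set, because 208372_s_at lay near the lowest value and 204356_at was at it.

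GAB1 and EIF5A2 were called at a probe set other than the one that represented them. GAB1 was higher at 225998_at, which read 8.65, 8.71 and 8.76 in miR-17 TuD, against 8.47, 8.49 and 8.50 in NC TuD (0.22, SE 0.029, limma adjusted p = 0.0304). EIF5A2 was higher at 235296_at, which read 7.69, 7.87 and 7.63 in miR-17 TuD, against 7.28, 7.21 and 7.36 in NC TuD (0.45, SE 0.076, limma adjusted p = 0.0475). Of the 6 fits with 1 array left out, this GAB1 call held in 2 and this EIF5A2 call in 0. All 3 EIF5A2 probe sets lay above 0, as did all 4 of STAT3 (0.11 to 0.29). The 0.11 is that of 243213_at, which read 3.24 on every array but miR-17 TuD replicate 2 (3.57). The 3 probe sets of APP (-0.03, -0.20 and -0.34) and the 3 of TXNIP (-0.12 to -0.17) all lay below 0, and none of these was called. At the APP probe sets 214953_s_at (-0.20) and 211277_x_at (-0.34) all miR-17 TuD arrays lay below all NC TuD arrays.

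**Figure D3:**
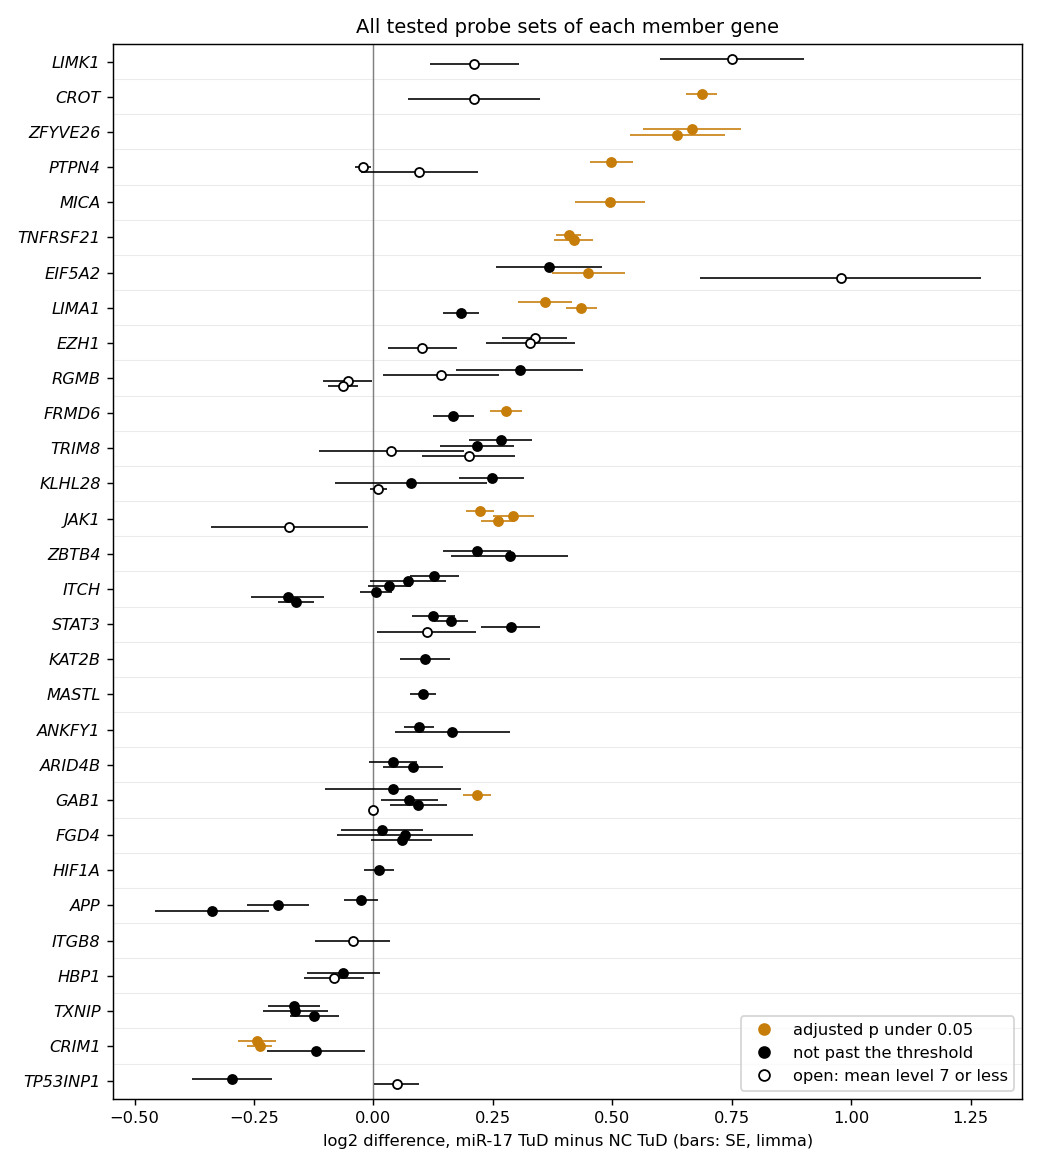
Log2 difference of every tested probe set of each member, miR-17 TuD minus NC TuD (x axis), with bars for the standard error from limma. Orange marks an adjusted p under 0.05 and open circles a mean level of 7 or less. TNFRSF21, ZFYVE26 and JAK1 have several called probe sets close together, while CROT and PTPN4 have 1 called probe set and dimmer ones nearer to 0.

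Genes of the pathways around the members were examined as lists, apart from the members. Their medians lay near 0, between -0.02 for Hippo signalling and 0.05 for ligands of NKG2D and immune checkpoints. Of their 157 distinct tested genes 14 (8.92%) were higher and 9 (5.73%) lower, against 6.78% and 4.60% of all genes. Of 23 tested JAK-STAT genes 1 rose, SOCS2, a feedback inhibitor of cytokine receptors (0.41, SE 0.030, limma adjusted p = 0.00732). The receptors, the other JAK kinases and the other STAT factors of that list did not pass. Of 15 HIF regulators 2 rose: EGLN3, a prolyl hydroxylase that marks HIF for degradation (0.46, SE 0.037), and HIF1AN, the asparaginyl hydroxylase that blocks HIF transactivation (0.59, SE 0.088). HIF1A itself, as given above, did not pass.

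Of 18 actin turnover genes 4 rose and none fell. They include SSH1 (0.62) and SSH2 (0.31), the slingshot phosphatases that reactivate cofilin after LIM kinase has inactivated it, and CFL2, the muscle-type cofilin (0.34). RHOA, the GTPase upstream of LIM kinase, was the other (0.12, SE 0.024, limma adjusted p = 0.0439), named after its values were seen. Its call ended with quantile normalization, no filter, a filter at the 60th percentile, a robust variance or the replicate block. It also ended without any 1 array other than miR-17 TuD replicate 2. Without any 1 NC TuD array 2 of the 18 genes passed, CFL2 and SSH2. SSH1 read 9.65, 9.85 and 9.93 in miR-17 TuD, against 9.17, 9.24 and 9.17 in NC TuD. Of 19 Hippo genes 3 rose and 3 fell. The largest differences were -0.33 for the kinase LATS1, 0.32 for its activator MOB1A and 0.28 for the upstream regulator NF2.

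Of 35 relatives of the members 2 rose and 3 fell, and among these 5 the largest differences were those of MICB, PTPN3 and TRIM2. Larger differences that did not pass, named after their values were seen, were those of ARRDC4, an arrestin-domain relative of TXNIP (-1.22, SE 0.279, limma adjusted p = 0.0609), and FGD3, a relative of FGD4 (-0.56, SE 0.122, limma adjusted p = 0.0546). In both, all miR-17 TuD arrays lay below all NC TuD arrays. MICB, the other MIC ligand of NKG2D, read 11.75, 11.86 and 11.98 in miR-17 TuD, against 11.27, 11.26 and 11.39 in NC TuD, a difference of 0.56 (SE 0.073, limma adjusted p = 0.0185). MICA and MICB are close in sequence, and whether their probe sets read each other's transcripts was not tested. PTPN3, the closest relative of PTPN4, rose by 0.46 (SE 0.030, limma adjusted p = 0.00621), and TRIM2, a ubiquitin ligase of the TRIM family, fell (-0.46, SE 0.069). Among 7 tested NKG2D and checkpoint ligands MICB was the 1 that rose.

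Of 17 early endosome and phosphatidylinositol 3-phosphate genes, RAB5B rose (0.37, SE 0.043), and RAB5A (-0.15) and SPG11, the binding partner of ZFYVE26 (-0.17), fell. Of 14 APP processing genes ADAM10, an alpha-secretase, fell (-0.23, SE 0.046). Of 12 Greatwall pathway genes PPP2R1A, the PP2A scaffold subunit, rose (0.13, SE 0.026). The calls of SOCS2, EGLN3, PTPN3, CFL2 and SSH2 held when any 1 array was left out, and those of ADAM10, SPG11 and RAB5A ended without any 1 array. HIF1AN, MICB and SSH1 passed only without miR-17 TuD replicate 1 or 3, TRIM2 and LATS1 only without miR-17 TuD replicate 2, and MOB1A only without miR-17 TuD replicate 3. The call of NF2 ended without NC TuD replicate 1, that of RAB5B without replicate 2 of either group or NC TuD replicate 3, and that of PPP2R1A without any 1 NC TuD array or replicate 1 of miR-17 TuD. Averaging a gene's probe sets gave 0.28 for SSH1, -0.27 for TRIM2 and -0.11 for LATS1, which then did not pass.

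**Figure D4:**
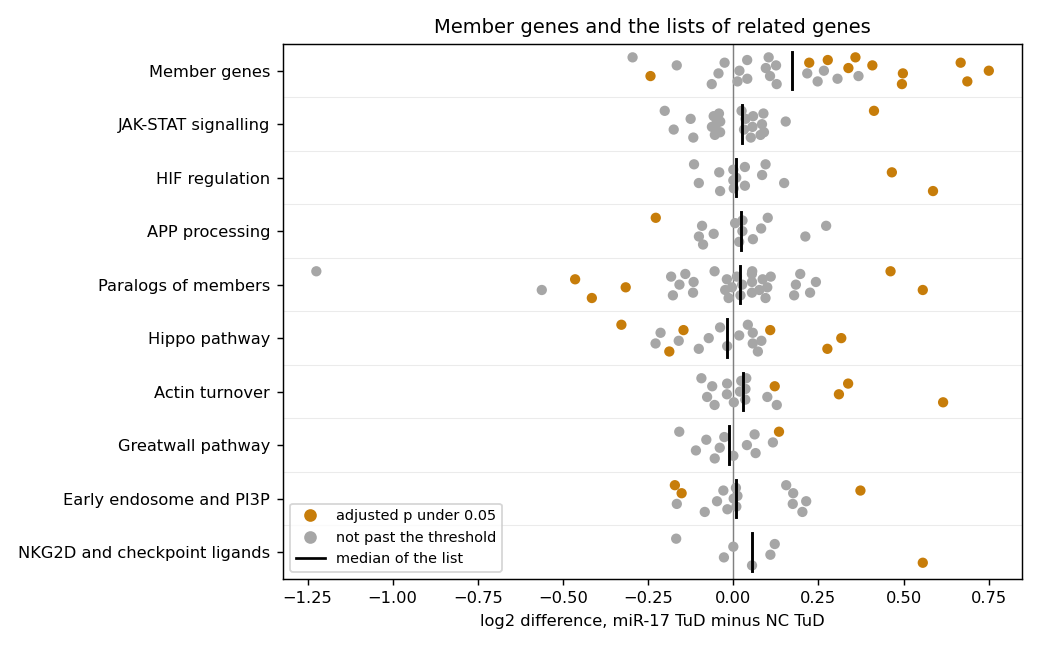
Log2 differences, miR-17 TuD minus NC TuD (x axis), of the 30 tested members (top line) and of the tested genes in 9 lists of related genes. Orange marks genes past the threshold, and the black bar is each list's median. The median of the members is 0.17, and those of the lists lie between -0.02 and 0.05.

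Most calls did not hold in every fit with 1 array left out, and such a fit also has fewer arrays to test with. CROT, PTPN4 and TNFRSF21 passed whichever of the 6 arrays was left out (highest adjusted p 0.0287, 0.0455 and 0.0418), and the other 8 called members did not. FRMD6 passed without any 1 miR-17 TuD array and not without any 1 NC TuD array. LIMK1, ZFYVE26 and EZH1 passed only without miR-17 TuD replicate 3 and MICA only without miR-17 TuD replicate 1. LIMA1 passed without miR-17 TuD replicate 1 or 3, CRIM1 without miR-17 TuD replicate 2 or 3, and JAK1 without NC TuD replicate 2 or 3. TRIM8, ZBTB4 and EIF5A2 passed once miR-17 TuD replicate 1 was left out, and KLHL28 without miR-17 TuD replicate 3. The number of members higher was 4 without miR-17 TuD replicate 2, and 3, 4 and 4 without NC TuD replicates 1, 2 and 3. Over all genes, the 946 higher became 485, 216, 226 and 305 in the same fits. With no filter on low values, LIMK1, ZFYVE26, MICA, LIMA1, EZH1 and CRIM1 did not pass. With the probe sets of a gene averaged, LIMK1 (0.48) and CRIM1 did not pass, STAT3 and EIF5A2 did, and CROT (0.45) and PTPN4 (0.19) passed with smaller differences. TP53INP1 passed as lower with median centring or with a filter at the 60th percentile. Among 472 alternative values of member genes, 0 had the other sign with a call and 10 had it without one.

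**Figure D5:**
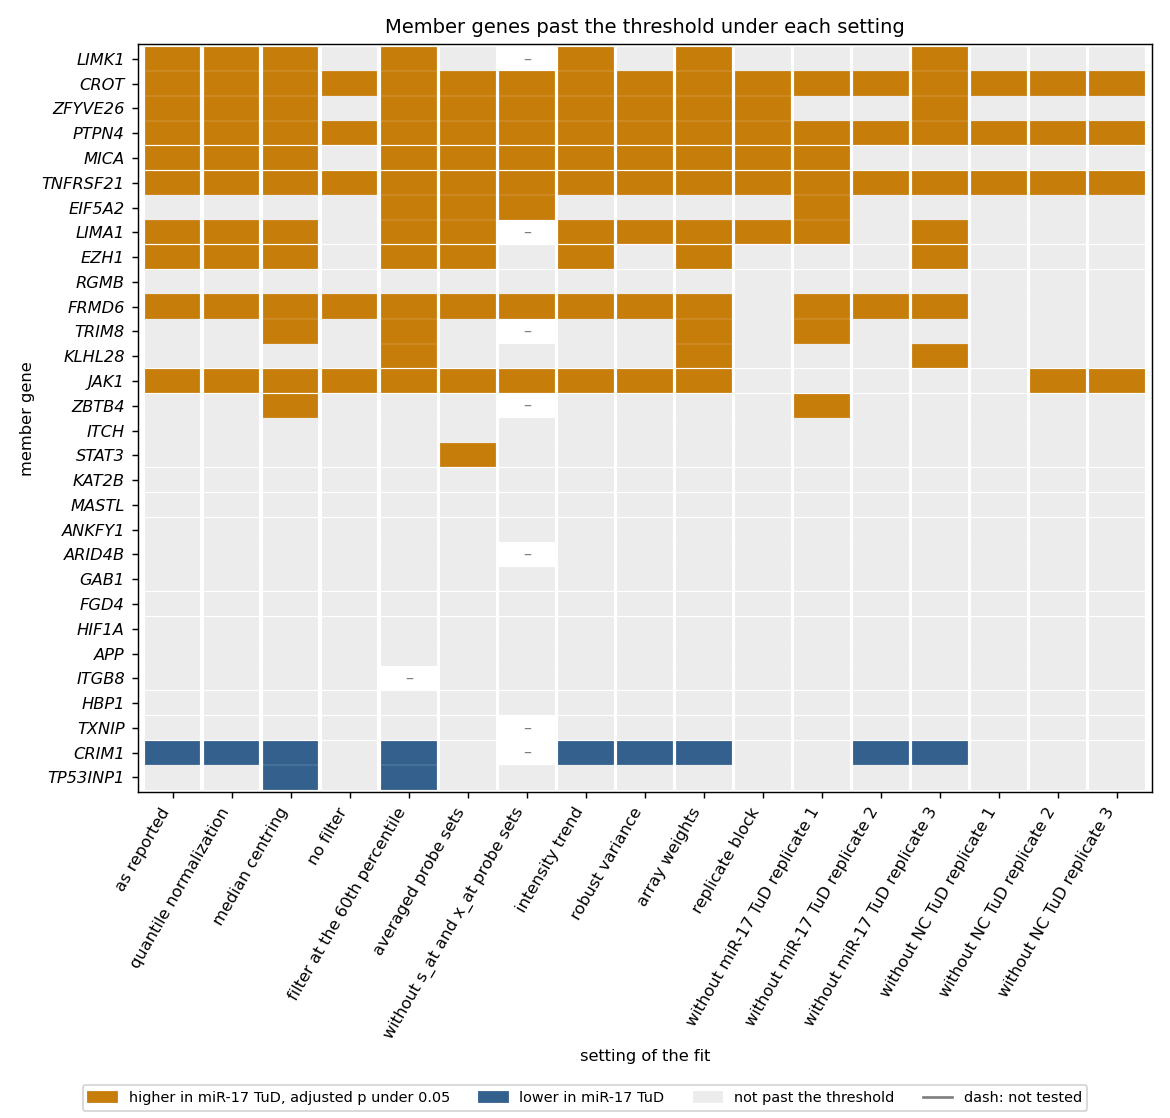
Calls of the 30 tested members (rows, in order of their difference) under the reported setting and 16 others (columns). Orange cells are higher and blue cells lower in miR-17 TuD at an adjusted p under 0.05, grey cells are not past the threshold, and a dash marks a gene not tested. CROT, PTPN4 and TNFRSF21 are orange in every column, while most other rows turn grey where an NC TuD array is left out.

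Correlations over all probe sets were 0.99940 to 0.99965 within a group and 0.99879 to 0.99914 between groups. All within a group were the higher. Array medians ran from 2.75 to 2.78. On each array 36.7% to 37.1% of probe sets lay at the lowest value, so these values are weak measures of how alike the arrays were. The cells carried hepatocyte markers, but 7 of the 8 tested were lower in miR-17 TuD. The largest falls were those of APOA1 (-1.31), AFP (-1.27) and FGB (-1.26), and without any 1 NC TuD array 3 markers passed (APOA1, FGB and TF), the calls of AFP, ALB, TTR and APOB having ended. ALB (-0.21) was -0.11 and not called with quantile normalization, and TF (-0.49) was -0.088 and not called without s_at and x_at probe sets. The summed level of the list was 16.99 to 17.05 in miR-17 TuD and 17.21 to 17.26 in NC TuD. Markers of fibroblasts (0 of 6 called, summed level 12.91 to 13.41 in miR-17 TuD and 12.85 to 12.89 in NC TuD) included COL1A1 at 12.79 in miR-17 TuD and 12.45 in NC TuD. Of the blood markers CD14 (3.71 in miR-17 TuD and 3.85 in NC TuD) and HBB (3.17 in miR-17 TuD and 3.09 in NC TuD) were tested and not called, and PTPRC did not pass the filter. Of the endothelial markers CDH5, KDR and VWF did not pass it, PECAM1 was at 2.43 in both groups, and CLDN5 was at 6.18 in miR-17 TuD and 5.99 in NC TuD. CLDN5 was higher on every miR-17 TuD array without passing (0.20, SE 0.046, limma adjusted p = 0.0651). Of 4 tested cholangiocyte markers SOX9 was lower (-0.15). Among the fits with 1 array left out, that call held only without NC TuD replicate 3. It also ended with averaged probe sets or the replicate block. The part of these differences in the members' changes was not tested, and in bulk RNA fewer cells of a type and less RNA per cell cannot be told apart.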

How the data were processed

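Total RNA from 6 Hep3B samples, 3 per group, was measured on Affymetrix HG-U133 Plus 2 arrays. The authors deposited log2 values, 1 for each probe set on each array. RMA and GCRMA are named in the submitters' processing notes without version or role, and no genome build is given in the sources used. On each array 36.7% to 37.1% of probe sets lay within 0.001 of the lowest value, 2.12, so changes of weakly expressed genes can be hidden, and normalization can alter the size of small differences. Depth does not apply to arrays, whose number limits the precision.

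Of 54675 probe sets, 62 controls were left out. The platform annotation pairs 41091 of the others with 1 symbol, 1801 with several (not named) and 11721 with none, and 41037 were matched through Entrez identifiers to RefSeq genes of GRCh38.p14. Probe sets whose mean was at or under the 40th percentile (2.14) were left out. The comparison used limma 3.58.1 (R 4.3.3), with lmFit, eBayes (no trend) and 2-sided p-values adjusted by Benjamini-Hochberg. The scripts were tested on simulated data. Alternatives were other normalizations, filters, variance models and probe set rules, the replicate block and leaving out each array. Members, lists and alternatives were chosen with earlier results of these data known. All members were named, and of each list up to 3 genes past the threshold with the largest difference.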

Additional observations from a re-analysis of the deposited data

How the results depend on the processing

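Quantile normalization, an intensity trend and array weights left all 8 counts of calls within 1.5 times the reported ones. Of the 10 members higher, 5 were called with no filter and 6 with the replicate block, and 3 to 9 when 1 array was left out. For the 1 member lower, the count was 2 with median centring or a filter at the 60th percentile. It was 0 with no filter, with averaged probe sets, under the replicate block, and once s_at and x_at probe sets were left out, where limma's unadjusted p was under 0.05 for 3, 3, 2 and 1 members, and 0 to 1 when 1 array was left out (1 to 2 at an unadjusted p under 0.05 where it was 0). Of 15 member probe sets higher, 5 were called with no filter, 0 with the replicate block (29 at an unadjusted p under 0.05) and 1 to 10 without 1 array. Of 2 lower, 1 was called with median centring or a robust variance, and 0 with no filter, without s_at and x_at probe sets, under the block or without any 1 array (limma's unadjusted p was under 0.05 for 7, 2, 6 and 4 to 6). Over all genes, the 946 higher became 1426 with median centring, 484 with no filter, 467 with the replicate block, 520 without s_at and x_at probe sets, and 216 to 719 without 1 array. The 642 lower became 305 with no filter, 355 with the replicate block, 407 without s_at and x_at probe sets, and 148 to 569 without 1 array. Over all probe sets, the 1098 higher became 1853 with median centring, 330 with no filter, 1705 with the filter at the 60th percentile, 437 once s_at and x_at probe sets were left out, 0 with the replicate block and 81 to 673 without 1 array. The 812 lower became 224, 1566, 399, 0 and 64 to 552 under the last 5 of these settings, and 7488 probe sets of either direction had an unadjusted p under 0.05 with the block. The cause of these changes was not tested. Deviations of same-numbered arrays from their group means correlated at r of 0.032, 0.130 and 0.101, so the numbers were not taken as pairs, though all 6 arrays correlated best with their own number, a hint from the data and not from the design. Averaging a gene's probe sets turned SPG11 to 0.00706, not called. The members' median stayed between 0.12 and 0.22.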

Other observations

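Some relatives of members that could not be tested fell, while most tested members lay above 0. Other relatives of such members did not pass: DAPK2 (0.11), NCOA1 (-0.18), PKD1 (0.20), RUNX3 (-0.01), CBFB (0.08) and CD274 (0.05). Those that fell are given here. They were chosen after their values were seen. DAPK1, a death-associated kinase related to DAPK3, read 12.52, 12.41 and 12.55 in miR-17 TuD, against 12.85, 12.99 and 12.88 in NC TuD, and fell (-0.42, SE 0.054, limma adjusted p = 0.0181). The call ended when any 1 NC TuD array, or replicate 1 of miR-17 TuD, was left out, and with the replicate block. NCOA2, a nuclear receptor coactivator related to NCOA3, read 11.62, 11.59 and 11.47 in miR-17 TuD, against 11.87, 11.90 and 11.85 in NC TuD, and fell (-0.32, SE 0.044, limma adjusted p = 0.0217). That call was lost without any 1 NC TuD array, without replicate 2 of miR-17 TuD, and with the replicate block. In the Hippo list, the coactivator YAP1 fell (-0.19), and of its target genes CCN1 rose (0.11) while CCN2 fell (-0.15). Those calls ended without any 1 NC TuD array or replicate 1 of miR-17 TuD, or with averaged probe sets, for YAP1, without NC TuD replicate 1 or 2 for CCN1, and without NC TuD replicate 2 or 3, or with median centring, for CCN2.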
